A study of Mus musculus with 16 samples.

Results

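The 5 genes of the Lrrc8 family, Lrrc8a to Lrrc8e, encode the subunits of the volume-regulated anion channel, and their m6A peaks were taken from MeRIP-seq peak lists of mouse cortex after transient ischemia. The family was selected on measured values of these lists, because a region at the end of the Lrrc8a coding sequence was present in every list of Sham and of reperfusion at 0 h and 6 h and absent from both lists at 24 h. All peaks on the same strand that overlapped exons of these genes (GENCODE M39 on GRCm39) were used. They came to 134 of 169564 peaks and, joined wherever they shared an exonic base, to 33 of 52776 regions. Peaks were found in 4 of the 5 genes, and Lrrc8e had none in any of the 8 lists.

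The volume-regulated anion channel opens when a cell swells and lets chloride and small organic osmolytes leave, so that the cell can shrink back. LRRC8A is the subunit without which the channel does not work at the plasma membrane, and it assembles with LRRC8B, LRRC8C, LRRC8D or LRRC8E, which set the properties of the channel and the solutes that pass. Glutamate is among these solutes, and release through this channel from swollen astrocytes is a known source of extracellular glutamate in the ischemic brain. The mark m6A is a methyl group on adenosine in mRNA, usually placed in long internal exons and around stop codons, where reader proteins bind it and act on the decay or the translation of the mRNA.

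The tissue was cortex around the infarct of adult male C57BL/6J mice aged 6 to 8 weeks at surgery. Sham mice had the operation without the filament, and MCAO/R mice had the middle cerebral artery blocked by a nylon filament for 2 h followed by reperfusion for 0, 6 or 24 h, groups named by that time (MCAO/R-24 h for the longest). The study used 6 mice per surgery group, and each group gave 2 immunoprecipitated (IP) libraries with 1 deposited peak list each. Whether a library came from 1 mouse or from pooled mice is not stated, so the spread between the 2 lists of a group may be technical. The p-values weigh differences among groups against that spread alone.

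A listed peak is a stretch of RNA in which IP reads exceeded input reads in the authors' peak call, and it carries a score. The scale of the score is not defined in the sources used here, so scores are given as the percentile within a list, which is the percentage of peaks in that list with a lower score. The lists held 18775 to 24078 peaks and no read counts, so depth is unknown. The paper reports far fewer confident peaks per sample. Which listed peaks belong to that set is not stated, so low-scoring regions may lie outside it. The input libraries were not analysed here, and a difference in the amount of an mRNA cannot be told apart from a difference in its methylation. In whole tissue, fewer cells of a type and less of an RNA per cell cannot be told apart either. Peak lists are no measure of cell content. Of the markers looked up, at least 1 gene of neurons, astrocytes, oligodendrocytes, microglia and endothelium had a peak in some list, while Camk2a, Slc17a7, Snap25 and Gfap had none in any.

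The sequences below show the word GGACT, a common form of the m6A consensus, in the stop codon regions of Lrrc8a, Lrrc8c and Lrrc8d. Each is given with 10 bases on either side on the transcribed strand (GRCm39 genome sequence, T for U), with the word in capitals. The Lrrc8a region held 3 of them, at chr2:30152056-30152080 in the last coding exon, where the word began 67 nt before the stop codon, and at chr2:30152195-30152219 and chr2:30152237-30152261 in the 3′ UTR, 72 nt and 114 nt past the first base of the stop codon. The Lrrc8c region held 1 at chr5:105756280-105756304 and the Lrrc8d region 1 at chr5:105961917-105961941, both in coding sequence.
Lrrc8a, 67 nt before the stop codon: tggtggaagaGGACTtgttcagcac
Lrrc8a, 72 nt past it: agctctcccaGGACTgcgacagcca
Lrrc8a, 114 nt past it: cagaaagcagGGACTgaggggctgg
Lrrc8c, 346 nt before the stop codon: tcagatacctGGACTtgtcctataa
Lrrc8d, 242 nt before the stop codon: gtgaagttgaGGACTttgaacctgg

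The 3 words in Lrrc8a lay under a peak in 3, 5 and 5 lists, in the order given, and were not under a peak at MCAO/R-24 h. The words in Lrrc8c and Lrrc8d lay under a peak in all 8 lists. The stop codon region of Lrrc8b, 425 nt long, held no GGACT on the transcribed strand, which says only that these letters are not in this window. Of regions whose exonic length was within 10% of these, GGACT occurred in 69.6% for Lrrc8a (975 nt), 47.5% for Lrrc8b, 62.5% for Lrrc8c (775 nt) and 65.5% for Lrrc8d (875 nt), and in 20.2% of all regions of any length. Over all exons, Lrrc8a had 6 such words, Lrrc8b 2, Lrrc8c 9, Lrrc8d 5 and Lrrc8e 4. Of these, 3 in Lrrc8a, 0 in Lrrc8b, 5 in Lrrc8c and 3 in Lrrc8d lay in a peak region. Per kb, Lrrc8a had 1.46 in peak regions and 1.29 outside them, and Lrrc8b 0 and 0.358. Lrrc8c had 2.94 and 0.674, and Lrrc8d 1.43 and 0.743, and these densities were not tested. Only the transcribed strand was searched, and no overlapping motif was scored.

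The genes share a plan: 4 have the coding sequence in 2 exons, and Lrrc8d has it in 1. Lrrc8a lies on chromosome 2 (30127678 to 30153827, plus strand) with 810 codons, of which exon 3 holds 2157 coding nt and exon 4 the last 273. Lrrc8b, Lrrc8c and Lrrc8d follow each other on the plus strand of chromosome 5, starting at 105563557, 105666591 and 105847798, with 803, 803 and 859 codons. Lrrc8e lies on chromosome 8 (4276827 to 4287816, plus strand) with 795 codons. Of the exonic bases under Lrrc8 peaks, summed over lists, 71.1% were coding, 28.6% were in the stop codon or the 3′ UTR, and 0.314% were in the 5′ UTR. Individual Lrrc8 peaks were 50 to 875 nt long with a median of 125 nt, which is also the median of all peaks.

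Each list held 15 to 19 Lrrc8 peaks. There were 19 and 17 in the Sham lists, 15 and 17 at MCAO/R-0 h, 19 and 16 at MCAO/R-6 h, and 15 and 16 at MCAO/R-24 h. Both Sham lists thus held more than both MCAO/R-24 h lists, while the other groups overlapped with Sham. These counts include the Lrrc8a region that chose the family, with 1 peak in each Sham list and 0 in each MCAO/R-24 h list. Nothing is therefore read from the difference between Sham and MCAO/R-24 h. Lrrc8a had 31 peaks in 9 regions, Lrrc8b 27 in 9, Lrrc8c 34 in 6 and Lrrc8d 42 in 9. Of the 33 regions, 14 (42.4%) were in a single list and 5 (15.2%) in all 8, against 52.6% and 8.97% of all regions. The map of regions by list shows how the recurring regions stand among those that appeared once.

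**Figure D1:**
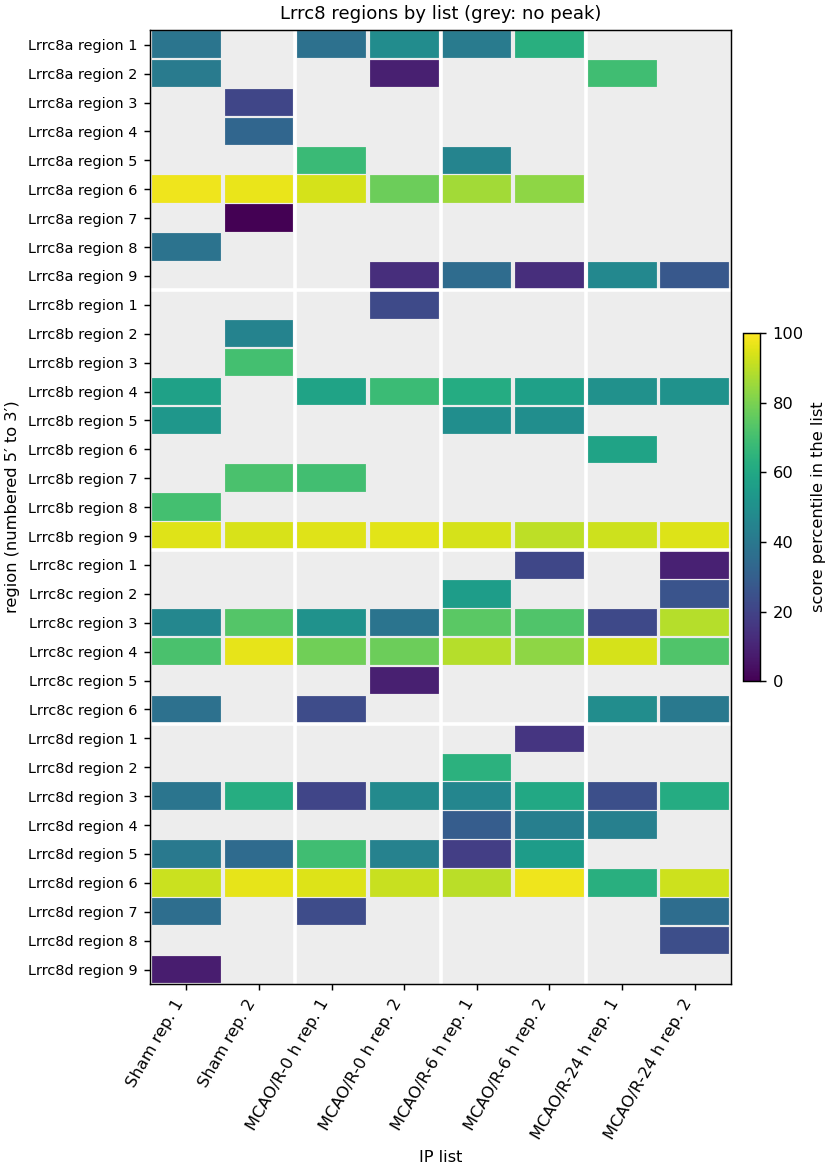
Score percentile of the top peak of each of the 33 Lrrc8 regions (rows, numbered from 5′ to 3′ within a gene) in each of the 8 IP lists (columns), with grey where the list holds no peak. The 5 regions present in all 8 lists are Lrrc8b region 9, Lrrc8c regions 3 and 4, and Lrrc8d regions 3 and 6, while Lrrc8a region 6 and Lrrc8d region 5 are filled in 6 lists and grey at MCAO/R-24 h.

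Lrrc8a, the obligatory subunit, carried its highest-scoring peaks at the end of the coding sequence (region 6). This region spanned chr2:30146944-30152433, crossing the junction of exons 3 and 4, and measured 975 nt without the intron. It comprised 674 coding nt (codons 586 to 810), the stop codon and 298 nt of 3′ UTR. Since this is the region on which the family was chosen, its values are a description and were not tested.

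The region covered 875 and 475 nt in the Sham lists, 525 and 400 nt at MCAO/R-0 h, 400 and 300 nt at MCAO/R-6 h, and 0 and 0 nt at MCAO/R-24 h. Its top peak stood at the percentiles 97.5 and 96.8 in Sham, 93.7 and 77.4 at MCAO/R-0 h, and 86.0 and 82.9 at MCAO/R-6 h. All 4 lists at 0 h and 6 h were thus below both Sham lists in percentile, and the values of these times overlapped. In Sham the top peak ranked 471 of 18775 and 640 of 20152.

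The shape of the region also differed among lists. In each Sham list it was a single peak, of 875 nt (chr2:30146944-30152333) and 475 nt (chr2:30147319-30152308), that ran across the exon junction into the 3′ UTR. At MCAO/R-0 h it was split into 2 and 3 peaks, and at MCAO/R-6 h into 3 and 2. The top peak of MCAO/R-0 h replicate 1 (chr2:30147119-30152033, 400 nt) was coding, whereas the top peak of MCAO/R-6 h replicate 1 (chr2:30152109-30152408, 300 nt) lay over the stop codon and the 3′ UTR.

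Bases shared by all 6 lists came to 125 nt in 3 stretches of the spliced mRNA. The first joined the last 26 nt of exon 3 to the first 24 nt of exon 4, the next was 25 nt long (chr2:30151909-30151933), and the last was 50 nt long (chr2:30152134-30152183) and began inside the stop codon (chr2:30152133-30152135). No GGACT lay in this shared part. The nearest Lrrc8a peak in the MCAO/R-24 h lists was 575 nt downstream in replicate 1 and 600 nt downstream in replicate 2. Exons 2 to 4 of Lrrc8a are also exons of an annotated readthrough transcript, Gm28035, on the same strand, so peaks there could belong to either and were counted for Lrrc8a.

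**Figure D2:**
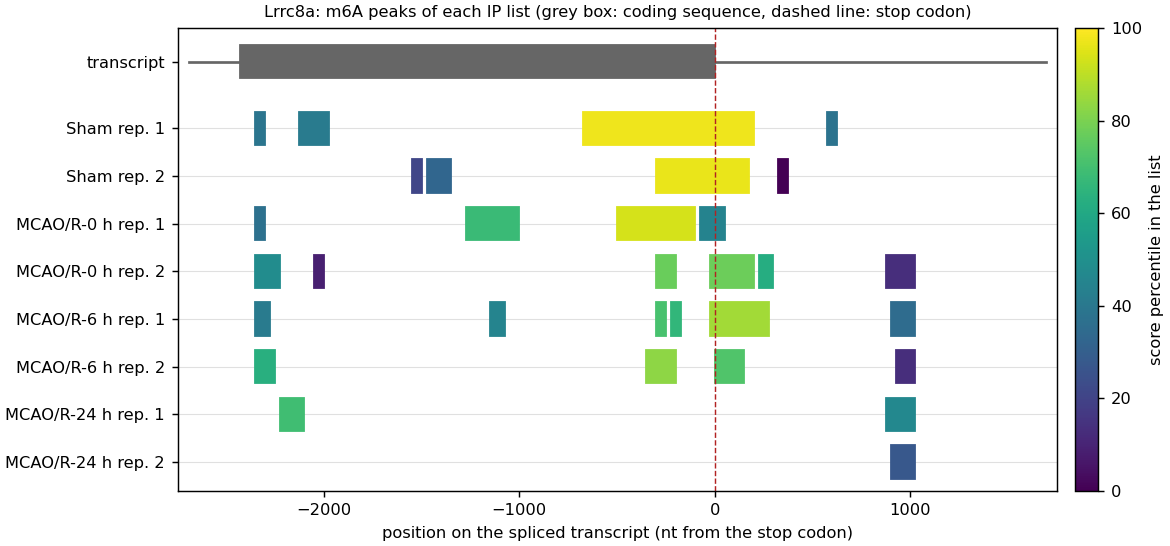
Peaks of the 8 IP lists (rows) along the spliced Lrrc8a transcript, in nt from the stop codon, with bars coloured by score percentile in the list and the coding sequence as a grey box. The region around the stop codon is filled in the 6 lists of the earlier groups and empty in both MCAO/R-24 h lists, where the peaks left are 1 in the coding sequence (replicate 1) and 1 in the 3′ UTR of each.

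A distal 3′ UTR region of Lrrc8a (region 9, chr2:30153009-30153158, 150 nt) began 876 nt past the stop codon. It was in neither Sham list, in MCAO/R-0 h replicate 2, and in every list of the later times, 6 h and 24 h. Its percentiles were 13.1 at MCAO/R-0 h, 35.0 and 12.9 at MCAO/R-6 h, and 46.6 and 27.3 at MCAO/R-24 h, so it stayed in the lower-scoring part of every list that held it. All 5 peaks ended at the same base, and 100 nt were common to them.

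Near the start of the coding sequence, region 1 of Lrrc8a (chr2:30145269-30145393, codons 28 to 69) was in 5 lists, namely Sham replicate 1 and all those at 0 h and 6 h, at percentiles of 36.9 to 62.9. Region 2, which adjoins it (codons 69 to 152), was in Sham replicate 1, MCAO/R-0 h replicate 2 and MCAO/R-24 h replicate 1, with its highest percentile, 69.4, in the last. No base of region 2 was common to the 3 lists. Region 5 (codons 386 to 477) was in replicate 1 at 0 h and at 6 h. Regions 3, 4, 7 and 8 were each in a single Sham list, at percentiles of 0.184 to 38.2.

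Over the whole gene, peaks covered 1125 and 700 exonic nt of Lrrc8a in Sham, 850 and 725 at MCAO/R-0 h, 675 and 500 at MCAO/R-6 h, and 275 and 125 at MCAO/R-24 h. The coding part of this was 874 and 474 nt in Sham, 799 and 299 nt at MCAO/R-0 h, 274 and 250 nt at MCAO/R-6 h, and 125 and 0 nt at MCAO/R-24 h. The mean ± SD of covered bases was 912.5 ± 301 nt in Sham and 200.0 ± 106 nt at MCAO/R-24 h (n = 2 lists each). Both MCAO/R-24 h lists were below all 6 others, whereas MCAO/R-0 h lay within the Sham range. These values contain the region that selected the gene and were not tested.

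Lrrc8b, an accessory subunit, had its main region just past the stop codon, and its percentiles had the narrowest range among the 5 regions found in all 8 lists. Region 9 (chr5:105633915-105634339, 425 nt) held 24 coding nt, the stop codon and 398 nt of 3′ UTR, and was in all 8 lists. Its percentile was 95.1 and 93.8 in Sham, 95.3 and 95.3 at MCAO/R-0 h, 93.7 and 90.0 at MCAO/R-6 h, and 92.3 and 94.6 at MCAO/R-24 h. Both MCAO/R-0 h lists were just above the other 6, and both Sham lists were above both MCAO/R-6 h lists, all within a range of 90.0 to 95.3. A stretch of 150 nt (chr5:105633990-105634139) lay under a peak in every list, and the stop codon itself in 3.

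In the coding sequence of Lrrc8b, region 4 (chr5:105628416-105628590, codons 254 to 312) was in all lists except Sham replicate 2, at percentiles of 50.0 to 68.0. Region 5, close behind it (codons 321 to 345), was in Sham replicate 1 and both MCAO/R-6 h lists at 49.1 to 52.9. Region 7 (codons 746 to 762) was in Sham replicate 2 and MCAO/R-0 h replicate 1, at 71.2 and 69.7. The other 5 regions of Lrrc8b were in 1 list each, 3 of them in a Sham list.

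Covered exonic bases of Lrrc8b were 550 and 575 nt in Sham, 500 and 475 nt at MCAO/R-0 h, 450 and 325 nt at MCAO/R-6 h, and 425 and 400 nt at MCAO/R-24 h. Both Sham lists were above all 6 MCAO/R lists, with means ± SD (n = 2 lists) of 562.5 ± 17.7, 487.5 ± 17.7, 387.5 ± 88.4 and 412.5 ± 17.7 nt in that order. In an exact permutation test, made over the 105 ways to divide 8 lists into 4 pairs and one-sided (groups further apart than in other divisions), p was 0.0571 for Lrrc8b and 1 after Benjamini-Hochberg adjustment over 13851 genes. The smallest p this exact test can give is 0.00952. A p under 0.05 before adjustment was reached by 397 genes (2.87%) and an adjusted one by 0 genes (0%), so the difference in Lrrc8b did not pass. With so coarse a test, far more than 397 genes would have to be under 0.05 for any to stay there after adjustment. The adjusted outcome therefore says little about a single gene.

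**Figure D3:**
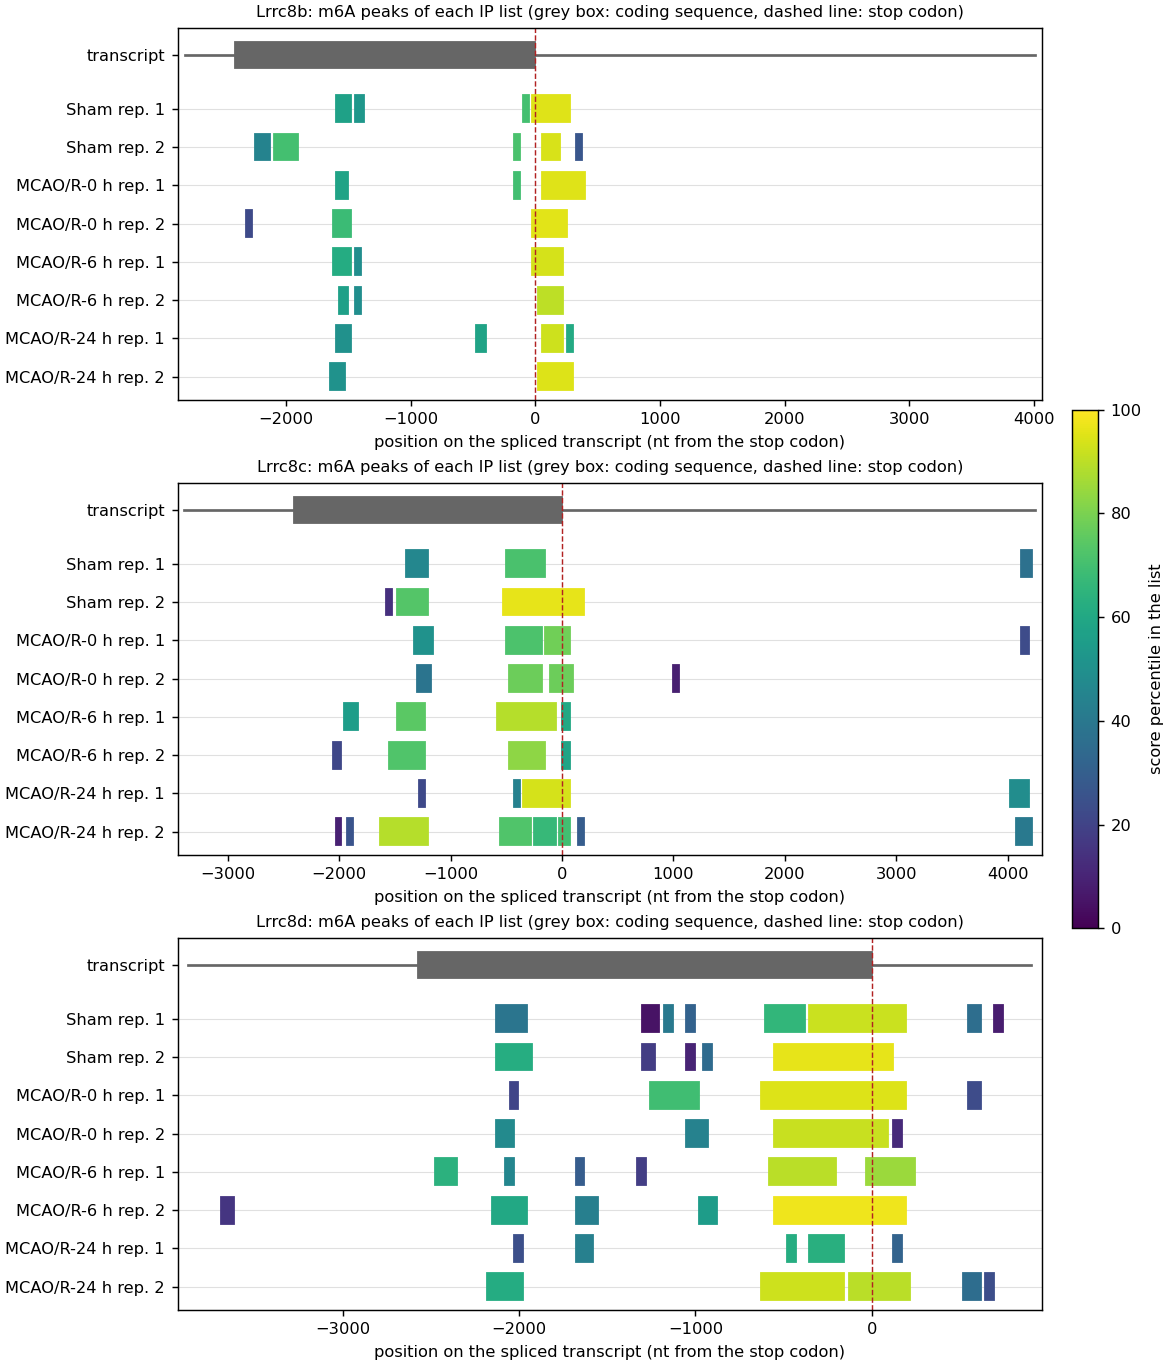
Peaks of the 8 IP lists (rows) along the spliced transcripts of Lrrc8b, Lrrc8c and Lrrc8d, in nt from the stop codon, with bars coloured by score percentile in the list and the coding sequence as a grey box. All 3 genes have a high-scoring region at or near the stop codon in all 8 lists, mostly past it in Lrrc8b and mostly before it in Lrrc8c and Lrrc8d, and in Lrrc8d this region is shorter and lower-scoring in MCAO/R-24 h replicate 1.

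Lrrc8c, another accessory subunit, had 2 regions in all 8 lists. Region 4 (chr5:105756056-105756830, 775 nt) held 580 coding nt (codons 610 to 803), the stop codon and 192 nt of 3′ UTR. Its percentile was 71.4 and 96.3 in Sham, 78.2 and 77.5 at MCAO/R-0 h, 88.9 and 82.9 at MCAO/R-6 h, and 93.5 and 72.6 at MCAO/R-24 h. The Sham lists held both the lowest and the highest of these values, and the other groups fell between them. The stop codon was under a peak in 7 lists, all but Sham replicate 1.

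Region 3 of Lrrc8c (chr5:105755006-105755480, codons 260 to 418) stood at 46.4 and 73.2 in Sham, 50.8 and 38.4 at MCAO/R-0 h, 74.2 and 72.6 at MCAO/R-6 h, and 21.9 and 88.9 at MCAO/R-24 h. The 2 lists of MCAO/R-24 h were the lowest and the highest of all 8, at 50 and 425 covered nt. Of the remaining 4 regions, the far 3′ UTR region 6 (chr5:105760656-105760855, 4020 nt past the stop codon) was in Sham replicate 1, MCAO/R-0 h replicate 1 and both MCAO/R-24 h lists, at 23.0 to 48.7. Regions 1 and 2, in the first part of the coding sequence, were each in MCAO/R-24 h replicate 2 and in 1 list at 6 h. Region 5 was in MCAO/R-0 h replicate 2 alone.

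Covered exonic bases of Lrrc8c were 650 and 1050 nt in Sham, 800 and 675 nt at MCAO/R-0 h, 975 and 800 nt at MCAO/R-6 h, and 700 and 1300 nt at MCAO/R-24 h. The groups overlapped, with an SD of 283 nt in Sham and 424 nt at MCAO/R-24 h (n = 2 lists each). The same exact permutation test gave p = 0.829, and 1 after adjustment.

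Lrrc8d is the subunit best known for letting larger, uncharged solutes pass. Its main region, region 6 (chr5:105961539-105962413, 875 nt), held 630 coding nt (codons 650 to 859), the stop codon and 242 nt of 3′ UTR and was in all 8 lists. The percentile was 92.0 and 96.2 in Sham, 94.8 and 91.5 at MCAO/R-0 h, 89.6 and 97.6 at MCAO/R-6 h, and 63.3 and 92.4 at MCAO/R-24 h. MCAO/R-24 h replicate 1 stood apart, with 300 nt covered against 650 to 825 nt in the other 7 lists, and it was the only list without a peak over the Lrrc8d stop codon. Replicate 2 of the same group, with 825 nt, lay within the range of the rest.

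Region 5 of Lrrc8d, inside the coding sequence (chr5:105960839-105961288, codons 416 to 566), had the same presence by group as the Lrrc8a region, with a peak in the 6 lists of the earlier groups and none at 24 h. Its percentiles were lower, 40.6 and 34.7 in Sham, 69.2 and 44.4 at MCAO/R-0 h, and 18.3 and 55.0 at MCAO/R-6 h. The peaks covered 200 and 175 nt, 275 and 125 nt, and 50 and 100 nt in that order. They did not line up, since no base was common to the 6 lists, and each Sham list held 3 short peaks there.

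Region 3 of Lrrc8d (chr5:105959989-105960238, codons 133 to 216) was in all 8 lists at percentiles of 20.4 to 61.8, again with no base common to all. Region 4 (chr5:105960489-105960613, codons 300 to 341) was in both MCAO/R-6 h lists, at 28.9 and 42.7, and in MCAO/R-24 h replicate 1, at 43.0. The single 5′ UTR region of the family was region 1 of Lrrc8d, in MCAO/R-6 h replicate 2 at percentile 15.5, and region 2 was in MCAO/R-6 h replicate 1 alone. Past the stop codon, region 7 was in 3 lists and regions 8 and 9 in 1 each. Region 7 lies opposite exons of the antisense lncRNA Lrrc8dos, which had a peak on the minus strand in the same 3 lists (Sham replicate 1, MCAO/R-0 h replicate 1 and MCAO/R-24 h replicate 2), with overlapping bounds. Of 9150 peaks lying wholly within exons of a gene on the other strand, 58.3% had a peak of the same list opposite them, and whether the counting kept strands apart is not stated, so the strand of region 7 is uncertain.

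Covered exonic bases of Lrrc8d were 1275 and 1050 nt in Sham, 1225 and 925 nt at MCAO/R-0 h, 925 and 1250 nt at MCAO/R-6 h, and 450 and 1175 nt at MCAO/R-24 h. The groups overlapped, and the exact permutation test gave p = 0.733, and 1 after adjustment. Without MCAO/R-24 h replicate 1 the exact p was 0.962, and without MCAO/R-24 h replicate 2 it was 0.162. Lrrc8e, the subunit with the most restricted expression of the family, had 0 covered bases in all 8 lists and so no test, and without the input libraries this does not tell an unmethylated mRNA from an mRNA at low level.

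**Figure D4:**
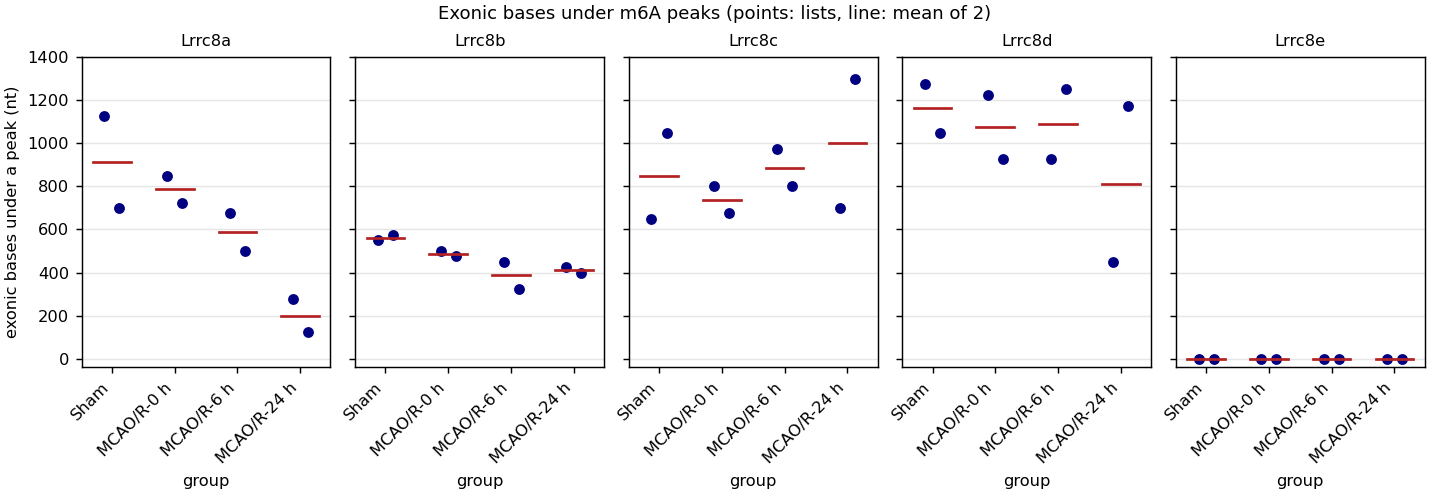
Exonic bases under a peak (nt) for each Lrrc8 gene in each of the 4 groups, with a point for each IP list and a line at the mean of 2. The MCAO/R-24 h points of Lrrc8a, at 275 and 125 nt, lie below those of the other groups, the Sham points of Lrrc8b lie above the rest, the groups of Lrrc8c and Lrrc8d overlap, and Lrrc8e is at 0 throughout.

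The stop codon regions of the 4 genes were set side by side, without a test. In Sham replicate 2 all 4 stood between 93.8 and 96.8, and in Sham replicate 1 Lrrc8c was lower at 71.4 with the other 3 between 92.0 and 97.5. At MCAO/R-24 h, Lrrc8b and Lrrc8c had the region at 92.3 and 93.5 in replicate 1 and at 94.6 and 72.6 in replicate 2. Lrrc8d had it at 63.3 and 92.4, and Lrrc8a in neither list. A peak over the stop codon was present in at least 1 list for 4360 protein-coding genes, in all 8 lists for 477 of them (10.9%), and in the 6 lists of the earlier groups but not at 24 h for 15 (0.344%), Lrrc8a included. This count rests on the pattern by which the gene was chosen and is no test of it.

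**Figure D5:**
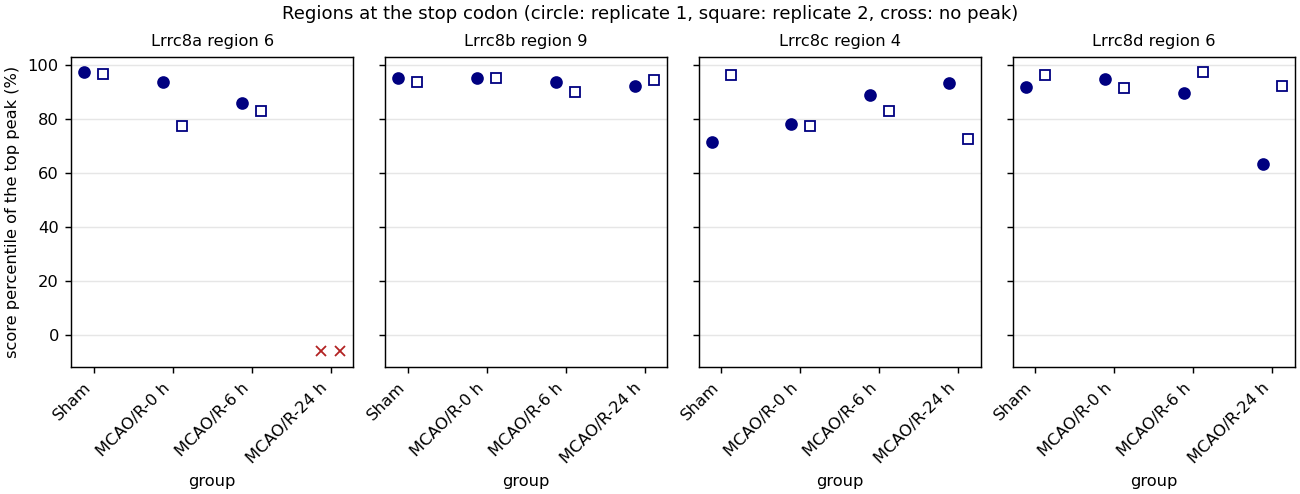
Score percentile of the top peak (%) in the stop codon region of Lrrc8a, Lrrc8b, Lrrc8c and Lrrc8d by group, with circles for replicate 1, open squares for replicate 2 and crosses for lists without a peak. Lrrc8b stays between 90.0 and 95.3, Lrrc8c and Lrrc8d each have lists that differ within a group, and Lrrc8a has crosses at MCAO/R-24 h.

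Reperfusion times were compared with Sham by calling a region gained where both lists of a time held it and neither Sham list did, and lost for the reverse. With 2 lists against 2, a two-sided exact permutation test cannot give a p below 0.333, and no test was made of these calls. The 3 comparisons share the Sham lists. At MCAO/R-0 h, 0 of 26 Lrrc8 regions were gained and 0 were lost, where 3.84% and 1.87% of all regions in these lists were. At MCAO/R-6 h, 2 of 29 were gained (Lrrc8a region 9 and Lrrc8d region 4), with 4.94% over all regions, and 0 were lost, with 2.03% over all.

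At MCAO/R-24 h, 1 of 28 was gained (Lrrc8a region 9), with 3.79% over all regions. Lost were 2 of 28, Lrrc8a region 6 and Lrrc8d region 5, with 2.76% over all regions. The lost Lrrc8a region chose the family, so nothing is read from that count. With the 18775 highest-scoring peaks of every list, the number in the shortest list, Lrrc8a region 9 was no longer gained at MCAO/R-6 h. When the lower-scoring 50% of a list was left out, region 9 of Lrrc8a was not gained at either time, region 4 of Lrrc8d was not gained and region 5 of Lrrc8d was not lost, while Lrrc8a region 6 was still lost at MCAO/R-24 h.

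The presence pattern of Lrrc8a region 6 was found in 121 regions, of which 116 were in protein-coding genes. The corresponding number of regions in all 6 other lists but in neither list of a group was 138 for Sham, 44 for MCAO/R-0 h and 68 for MCAO/R-6 h. Ordered by the lowest of their 6 percentiles, the first 5 were in Afdn (93.6), an adaptor of cell junctions, Gcc2 (92.5), a Golgi tethering protein, Epb41l1 (91.5), which links the membrane to the cytoskeleton, Pde1a (91.5), a cyclic nucleotide phosphodiesterase, and Ypel5 (89.8). Lrrc8a was number 17 with 77.4.

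Other genes of cell volume control and of swelling-activated or related anion transport, 24 in all, were looked at as a list. Of these, 21 had a peak in some list and 8 had a peak in all 8 lists, and regions of 6 were called gained or lost at some time. The same shares over all genes were not computed, so these gene counts are not read as high or low. At MCAO/R-24 h, 6 of 77 regions (7.79%) in 4 genes were gained and 0 were lost, where 3.79% and 2.76% of all regions were. At MCAO/R-6 h, 2 of 84 (2.38%) were gained and 0 lost, beside 4.94% and 2.03% of all regions. At MCAO/R-0 h, 2 of 73 (2.74%) were gained and 1 (1.37%) lost, beside 3.84% and 1.87%. These counts are descriptions and were not tested.

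Panx2, a pannexin of neurons, had a region (chr15:88952996-88953170) in all 6 MCAO/R lists and neither Sham list, at percentiles of 44.2 to 61.8. Panx1, a pannexin that forms ATP-releasing channels, had a region gained at MCAO/R-0 h (36.3 and 5.00) and MCAO/R-24 h (48.9 and 20.1). Ano6, a scramblase and ion channel, had 3 regions gained at MCAO/R-24 h, at percentiles of 7.20 to 64.6. Aqp4, the water channel of astrocyte endfeet, had a region gained at MCAO/R-24 h at 58.8 and 65.4. In number of lists, the Panx1 region was in 5, the Ano6 regions in 4, 3 and 3, and the Aqp4 region in 4. Each was therefore also held by a list of a reperfusion time at which it was not called. Ttyh3, of a family reported as anion channels, had a region gained at MCAO/R-6 h, at 23.3 and 7.31. Wnk3, a kinase that senses chloride and controls cation-chloride cotransporters, had a region lost at MCAO/R-0 h that stood at 2.10 and 74.8 in Sham. That region was in 6 lists, so it was present in every list at 6 h and 24 h.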

How the data were processed

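MeRIP-seq peak lists of 8 IP libraries were used, 2 from Sham mice and 2 from each reperfusion time, grouped by their titles. Reads were trimmed (Trim Galore) by the authors, who aligned them to GRCm39 with HISAT2, filtered out reads without a unique alignment (SAMtools) and ran exomePeak2 for peak calling, with cutoffs of 0.05 for the p-value and 0.5 for the log2 fold change. The version of the peak caller, the strandedness of the libraries and any pooling of replicates for a call are not given in the sources used here. Fragment length is given as about 100 nt in the study's methods but as about 200 nt in the sample records, which bears on how finely a peak can be placed.

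The deposited value of a peak is a score on a scale left undefined, and it was used only as a rank within a list. The columns of a list carry no read counts, so depth and counting error are unknown, and precision comes from 2 lists per group. Input libraries, 8 in number, are not analysed here.

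A peak spanning introns is deposited as 1 block. Each peak was given to the same-strand gene whose exons it overlapped most (GENCODE M39, basic protein-coding transcripts), reduced to its exonic part and joined with others sharing at least 1 exonic base. Positions refer to the Ensembl canonical transcript. Computation was in Python 3.11.15, numpy 2.4.6 and matplotlib 3.10.9, and the steps of joining and test were tested on simulated data. The simulated peaks were single blocks in groups far apart, so joining across introns or among adjacent short peaks was not tested. The assignment of peaks to genes was not tested in this way either. The members and lists were chosen with earlier results of these data known. Named genes were the 5 members, the first 5 protein-coding genes with the presence pattern of the Lrrc8a region, and the genes of the volume list with a called region. The alternatives were other ways of joining, score filters, all transcripts, leaving out each library, covered bases as a share of the list, and a replicate block.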

Additional observations from a re-analysis of the deposited data

How the results depend on the processing

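The Lrrc8a stop codon region was in the same 6 lists under all 5 alternatives in joining, score and exons, which says nothing of its stability, since it was chosen for this pattern and its percentiles (77.4 to 97.5) lie above the score filters. Covered bases of Lrrc8b, Lrrc8c and Lrrc8d missed an adjusted 0.05 under all 13 alternatives each. Given the smallest p such a test can reach and the number of genes, this outcome was nearly fixed in advance, so its recurrence is no sign of stability. Exact permutation p ranged without 1 library from 0.00952 to 0.200 for Lrrc8b, from 0.352 to 0.962 for Lrrc8c and from 0.162 to 0.962 for Lrrc8d, with adjusted p of at least 0.757. The lowest values of Lrrc8b, 0.00952 and 0.0286, came without MCAO/R-6 h replicate 1 and replicate 2. The exact permutation p of Lrrc8b was 0.248 with covered bases as a share of the list, 0.429 without the lower-scoring 50% and 0.0571 with equal numbers of peaks. With the replicate block (24 divisions, smallest p 0.0417) the exact permutation p was 0.0833, 0.833 and 0.833 for the 3 genes. Between libraries of the same number, deviations from group means over 13851 genes correlated at 0.0183 to 0.0496. This was computed after covered bases were scaled to the total of each list, so a shared difference in list size cannot show in it. Replicate 2 had the longer list in every group, and whether libraries of the same number share a batch was not tested.

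When the lower-scoring 50% of a list was dropped, gained regions fell from 2 to 0 at MCAO/R-6 h and from 1 to 0 at MCAO/R-24 h, lost regions at MCAO/R-24 h fell from 2 to 1, and the family held 19 regions and 74 peaks. With equal numbers of peaks, 1 region was gained at MCAO/R-6 h. Leaving out 1 library, a group then rests on a single list, and calls can only be added or stay. Gained regions then came to 0 to 3 at MCAO/R-0 h, 2 to 5 at MCAO/R-6 h and 1 to 4 at MCAO/R-24 h, and lost regions to 0 to 5, 0 to 6 and 2 to 8. Lost counts were 5, 6 and 8 without Sham replicate 1 and 4, 6 and 7 without Sham replicate 2, when 16.7%, 16.6% and 19.3%, and 14.9%, 15.1% and 17.9%, of all regions were called lost. Gained counts were highest at 0 h without MCAO/R-0 h replicate 1 (3, with 26.1% of all regions gained), at 6 h without MCAO/R-6 h replicate 2 or Sham replicate 1 (5 each, with 23.7% and 8.93%) and at 24 h without MCAO/R-24 h replicate 1 (4, with 24.5%). Calls added in this way are by construction regions that differed between the 2 lists of a group, and without depth it is unknown whether an unlisted peak lay just under the caller's cutoffs.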
